A study of Homo sapiens with 18 samples.

Results

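OLFM1, TMEM132E and TAFA5 are 3 genes best known from the nervous system whose RNA was higher in HAP1 cells without the cohesin loader subunit SCC4. They were chosen for that difference, from earlier results on these samples, and are described here with 4 paralogs, OLFM2, OLFM3, TMEM132A and TMEM132B. These 7 genes were among 20329 genes counted in 18 samples. HAP1 is a near-haploid human line that came from a chronic myeloid leukaemia line, and the study reports that its p53 function is impaired. There were 6 groups of 3 samples, and polyadenylated RNA of each was sequenced. Control A and control B were wild-type HAP1 cells. ΔWAPL 3.3 (WaplKO_3.3) and ΔWAPL 1.14 (WaplKO_1.14) were clones with a Blasticidin cassette inserted by CRISPR at WAPL, and ΔSCC4 (SCC4KO) was a clone with a Puromycin cassette at SCC4. ΔWAPL/ΔSCC4 (WaplKO_3.3/SCC4KO) came from ΔWAPL 3.3 cells in which SCC4 was knocked out as well. The labels give no more than a single clone per knockout group, so the effect of the lost gene and of that clone cannot be told apart. The sources used here do not say whether the 3 samples of a group were separate cultures, so the p-values measure only the spread between these samples, which may be technical. The names of the deposited files put control A, ΔWAPL 3.3, ΔSCC4 and ΔWAPL/ΔSCC4 under a shared project number and lane, and control B and ΔWAPL 1.14 under another, so each knockout was read against the controls of its own set.

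Cohesin is a ring-shaped complex that holds DNA together and forms chromatin loops. The SCC2/SCC4 complex loads it onto DNA, and WAPL releases it. Olfactomedins are secreted glycoproteins with a shared C-terminal domain. OLFM1, also called noelin or pancortin, acts in neural crest and neuronal development, and OLFM1, OLFM2 and OLFM3 associate with AMPA-type glutamate receptors. TMEM132 proteins are single-pass membrane proteins with an adhesion-like extracellular part. TMEM132E is needed for hearing, and TMEM132A binds the chaperone BiP. TAFA5 is a small secreted, chemokine-like protein made mainly in the brain.

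The 7 genes lie on 7 chromosomes, so none of them is a neighbour of another. In GRCh37 (GENCODE v44lift37), OLFM1 (ENSG00000130558) spans chr9:137967268-138013026 on the plus strand, TMEM132E (ENSG00000181291) chr17:32906506-32966337 on the plus strand and TAFA5 (ENSG00000219438) chr22:48885365-49246724 on the plus strand. The paralogs are OLFM2 (ENSG00000105088) at chr19:9964394-10047191 on the minus strand, OLFM3 (ENSG00000118733) at chr1:102268116-102462482 on the minus strand, TMEM132A (ENSG00000006118) at chr11:60691932-60704631 on the plus strand and TMEM132B (ENSG00000139364) at chr12:125670932-126146923 on the plus strand. The genes differ in size. TAFA5 covers 361.4 kb with 3080 bases of annotated exon, OLFM1 covers 45.8 kb with 6125 bases and TMEM132E covers 59.8 kb with 6115 bases.

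The promoters of the 3 genes are shown because the genes moved together in ΔSCC4, and that of OLFM3 because it moved the other way. Each line is the 250 bases before the RefSeq start site in GRCh38.p14, 5′ to 3′ on the gene's own strand, at chr9:135075255-135075504 for OLFM1, chr17:34579332-34579581 for TMEM132E, chr22:48489303-48489552 for TAFA5 and chr1:101846989-101847238 for OLFM3. Capitals mark the GC box, GGGCGG or its reverse complement CCGCCC, which is the motif bound by SP1-family factors.
OLFM1: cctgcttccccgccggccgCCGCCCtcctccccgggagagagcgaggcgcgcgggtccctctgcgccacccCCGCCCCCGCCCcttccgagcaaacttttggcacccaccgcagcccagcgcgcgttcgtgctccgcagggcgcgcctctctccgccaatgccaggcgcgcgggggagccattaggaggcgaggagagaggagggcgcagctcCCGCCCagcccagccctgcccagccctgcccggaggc
TMEM132E: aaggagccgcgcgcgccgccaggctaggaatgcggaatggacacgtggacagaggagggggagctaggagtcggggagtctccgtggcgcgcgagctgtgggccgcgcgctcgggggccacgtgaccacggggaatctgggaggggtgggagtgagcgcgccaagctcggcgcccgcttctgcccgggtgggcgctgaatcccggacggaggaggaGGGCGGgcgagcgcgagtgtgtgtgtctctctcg
TAFA5: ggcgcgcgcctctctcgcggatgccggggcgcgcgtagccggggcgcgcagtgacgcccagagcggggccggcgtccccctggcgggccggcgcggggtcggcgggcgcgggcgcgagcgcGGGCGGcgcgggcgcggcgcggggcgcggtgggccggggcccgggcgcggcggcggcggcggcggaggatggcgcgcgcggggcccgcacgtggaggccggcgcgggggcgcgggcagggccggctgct
OLFM3: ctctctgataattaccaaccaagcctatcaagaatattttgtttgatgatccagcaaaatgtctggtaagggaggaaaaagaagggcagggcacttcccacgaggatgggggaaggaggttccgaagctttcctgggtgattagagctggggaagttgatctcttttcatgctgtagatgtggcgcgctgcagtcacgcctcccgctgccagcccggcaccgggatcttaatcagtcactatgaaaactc

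The 3 promoters were rich in G, C and CpG. In a window of 300 bases, 250 before and 50 after the start, the GC content was 74.7% for OLFM1, 72.3% for TMEM132E and 87.7% for TAFA5, against a median of 58.3% over 27305 RefSeq promoters. These values stood at percentiles 90.5, 85.9 and 99.97 of all promoters. The windows held 38, 42 and 67 CpG dinucleotides, against a median of 14. TAFA5 thus had one of the most GC-rich promoters in the table, while the OLFM3 window was ordinary, with a GC content of 51% and 9 CpG. That OLFM3 window lies inside the gene's annotated body, at the start of a shorter transcript, and which start these cells use was not tested. High CpG content was not particular to the 3 genes among the members, since the windows of OLFM2 and TMEM132B held 31 and 40 CpG.

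The OLFM1 window held 4 GC boxes, those of TMEM132E and TAFA5 held 1 each, and the OLFM3 window held 0. The windows of OLFM2 and TMEM132B held 6 and 3, so GC boxes were not particular to the chosen genes. At least 1 GC box stood in 44.6% of all promoters. None of the windows of the 3 chosen genes held TATAAA (11.95% of all promoters), AGGGGGC, the core of the CTCF motif (14.1%), or TTCAGCACC, the left part of the RE1 element of neuronal genes (0.403%), on either strand. The OLFM2 window held 1 match to AGGGGGC. Each motif was counted on its own, so a GC box can overlap the CTCF letters. A missing match says only that these letters are not in this window. RefSeq gave a promoter for 6 of the 7 genes, and TMEM132A had no entry.

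Total counts on genes ranged from 10007646 to 20711127 per sample, with a median of 16177867, and the lowest total was in ΔSCC4. Levels are given as CPM, the count scaled to the library's TMM-adjusted size, and as CPM per kb of annotated exon where genes are compared with each other. Differences are log2 fold changes with standard errors (SE) from edgeR's quasi-likelihood test, and adjusted p-values are Benjamini-Hochberg values over all genes tested, with a threshold of 0.05. Whether the samples of groups overlap is given as a description, since the share of all genes without overlap was not computed. The targeted genes were looked at first. The RNA of MAU2, the gene of SCC4, was 65.6 ± 6.12 CPM (SD, n = 3) in control A, 0.699 ± 0.243 CPM in ΔSCC4 and 0.936 ± 0.0996 CPM in ΔWAPL/ΔSCC4, and 56.1 to 64.3 CPM on average in the other groups. WAPL RNA was lower but not absent where WAPL was targeted, at 43.7 ± 5.73 CPM in ΔWAPL 3.3 against 99.4 ± 21.6 CPM in control A, and at 41.4 ± 2.89 CPM in ΔWAPL 1.14 against 120.4 ± 14.5 CPM in control B. These levels go with the labels of every group.

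OLFM1 was nearly silent in control cells and higher in every knockout group. In control A its 3 samples stood at 1.24, 0.928 and 1.37 CPM, from 15 to 23 reads each. In ΔSCC4 they stood at 26.9, 27.2 and 22.4 CPM, from 269 to 415 reads. All 3 ΔSCC4 samples lay far above all 3 controls, and the ratio of the means was 21.6. In bulk RNA, more cells with the transcript and more transcript per cell cannot be told apart. The ΔWAPL/ΔSCC4 samples stood at 18.9, 18.4 and 19.97 CPM, a ratio of 16.2 to control A. Since OLFM1 was chosen on these groups, both ratios describe the choice and carry no test.

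The set of control B shows OLFM1 in samples that played no part in the choice. In control B it stood at 2.18, 2.28 and 2.42 CPM, and in ΔWAPL 1.14 at 24.6, 24.6 and 26.8 CPM. The groups did not overlap and the ratio of the means was 11.04. The log2 fold change was 3.44 (SE 0.0936), and edgeR's adjusted p was 3.03e-06. This comparison called 20.1% of the 12636 genes tested. In ΔWAPL 3.3 OLFM1 stood at 8.09, 7.63 and 8.96 CPM, above control A in every sample, with a log2 fold change of 2.78 (SE 0.215, edgeR adjusted p = 7.04e-07). ΔWAPL 3.3 shares control A with the comparison on which the gene was chosen, and 8.07% of 12489 genes were called in it. From low to high, the group means ran from control A over control B, ΔWAPL 3.3, ΔWAPL/ΔSCC4 and ΔWAPL 1.14 to ΔSCC4. The samples of ΔWAPL 1.14 and ΔSCC4 overlapped, and no other neighbours in that order did.

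TMEM132E separated the cells by SCC4. It stood at 1.76, 1.11 and 1.253 CPM in control A and at 30.4, 24.8 and 29.0 CPM in ΔSCC4. The ratio of the means was 20.4. In ΔWAPL/ΔSCC4 it stood at 31.1, 28.3 and 35.3 CPM, which overlapped ΔSCC4 and was 23.0 times the mean of control A. As for OLFM1, these values are the ones that chose the gene.

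Loss of WAPL alone left TMEM132E low. The 3 samples of ΔWAPL 3.3 stood at 2.896, 2.898 and 3.915 CPM, and those of ΔWAPL 1.14 at 3.13, 4.05 and 4.06 CPM. Control B stood at 2.45, 1.88 and 2.76 CPM. The clones overlapped each other, and each lay above its own controls without overlap. The rise in ΔWAPL 3.3 was 1.21 on the log2 scale (SE 0.254, edgeR adjusted p = 0.00585, with control A shared). In ΔWAPL 1.14, which is independent of the choice, it was 0.64 (SE 0.179, edgeR adjusted p = 0.0459). That call was fragile. DESeq2 gave 0.65 with an adjusted p of 0.117, and edgeR lost it without control B replicate 1 (adjusted p = 0.122) or 2 (0.0890) and without ΔWAPL 1.14 replicate 1 (0.0513), 2 (0.133) or 3 (0.149).

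TAFA5 was also highest in ΔSCC4, but the groups fell in another order. Control A stood at 2.99, 2.29 and 2.74 CPM and ΔSCC4 at 39.1, 29.6 and 35.0 CPM, a ratio of 12.9 between the means. The rule that picked the genes counts 2 of the 3 as higher in ΔWAPL/ΔSCC4. TAFA5 too was higher there, at 11.16, 11.01 and 11.63 CPM in that group, a ratio of 4.21 to control A without overlap. That level lay below all 3 ΔWAPL 3.3 samples, which stood at 13.3, 13.6 and 17.2 CPM. OLFM1 and TMEM132E, in contrast, stood higher in every ΔWAPL/ΔSCC4 sample than in any ΔWAPL 3.3 sample.

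In the independent set TAFA5 rose from 3.07, 2.82 and 2.87 CPM in control B to 6.16, 7.50 and 5.93 CPM in ΔWAPL 1.14. The groups did not overlap, and the log2 fold change was 1.15 (SE 0.130, edgeR adjusted p = 0.000975). In ΔWAPL 3.3 the log2 fold change was 2.44 (SE 0.198, edgeR adjusted p = 1.03e-06, with control A shared). The TAFA5 rise differed between the clones. The interaction of clone and genotype was 1.30 on the log2 scale (SE 0.228, edgeR adjusted p = 0.00557), with control A again among its samples, and 2.65% of 12786 genes were called in that test. It was the member past the threshold there. The same difference was -0.65 (SE 0.216, adjusted p = 0.206) for OLFM1 and 0.59 (SE 0.307, adjusted p = 0.540) for TMEM132E in edgeR. Group means of TAFA5 ran from control A over control B, ΔWAPL 1.14, ΔWAPL/ΔSCC4 and ΔWAPL 3.3 to ΔSCC4, and the controls were the pair of neighbours that overlapped.

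**Figure D1:**
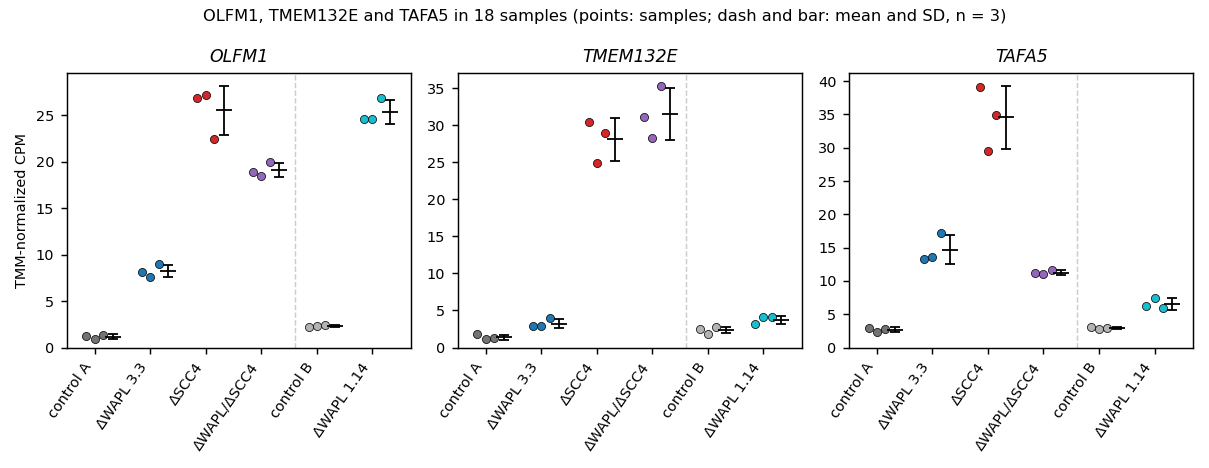
TMM-normalized CPM of OLFM1, TMEM132E and TAFA5 in each of the 18 samples (points) by group, with the mean and SD of 3 samples beside them, and a dashed line between the sets of control A and control B. OLFM1 is raised in every knockout group, TMEM132E stands above 24 CPM in the groups without SCC4 and below 5 CPM elsewhere, and TAFA5 is above 29 CPM in ΔSCC4 samples alone.

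Loss of SCC4 was added to loss of WAPL in ΔWAPL/ΔSCC4, which can be read against ΔWAPL 3.3, the clone it came from. OLFM1 was 2.32 times and TMEM132E 9.75 times the mean of ΔWAPL 3.3, and the samples did not overlap. TAFA5 was at 0.767 of it, with every ΔWAPL/ΔSCC4 sample below every ΔWAPL 3.3 sample. The ΔWAPL/ΔSCC4 samples took part in the choice of genes, so these ratios carry no test.

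Of the paralogs, OLFM3 moved in the opposite direction in cells without SCC4. It stood at 8.26, 7.80 and 7.93 CPM in control A, from 126 to 133 reads. In ΔSCC4 it was nearly absent, with 1, 0 and 2 reads (0.0648, 0 and 0.138 CPM). In ΔWAPL/ΔSCC4 it stood at 0.854, 0.369 and 0.397 CPM, from 6 to 15 reads. All samples of both groups lay below all controls. Over the summed reads, 386 in control A and 3 in ΔSCC4, OLFM3 was 106-fold lower in ΔSCC4, with a 95% interval of 36.1 to 517 that covers counting error only. The test against control A gave an edgeR adjusted p of 2.15e-06 in ΔSCC4, a comparison that called 9.49% of 12503 genes. In ΔWAPL/ΔSCC4 the log2 fold change was -3.87 (SE 0.248, edgeR adjusted p = 5.44e-06), and 7.95% of 12594 genes were called.

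OLFM3 rose where WAPL alone was lost. ΔWAPL 3.3 stood at 20.1, 16.5 and 13.9 CPM, a log2 fold change of 1.06 over control A (SE 0.171, edgeR adjusted p = 0.000687). ΔWAPL 1.14 stood at 11.4, 12.7 and 9.38 CPM against 6.06, 5.17 and 7.54 CPM in control B, a log2 fold change of 0.81 (SE 0.162, edgeR adjusted p = 0.0127). Neither pair of groups overlapped. The call in ΔWAPL 1.14 was lost without control B replicate 1 (adjusted p = 0.0655) or without ΔWAPL 1.14 replicate 1 (0.0577) or 2 (0.0559). Against ΔWAPL 3.3, ΔWAPL/ΔSCC4 was lower by a log2 fold change of -4.94 (SE 0.255, edgeR adjusted p = 1.66e-09), in a comparison that called 10.6% of 12544 genes. No neighbouring groups in the order of OLFM3 levels overlapped, from ΔSCC4 over ΔWAPL/ΔSCC4, control B, control A and ΔWAPL 1.14 to ΔWAPL 3.3. Over the 18 samples the log2 CPM of OLFM3 and TMEM132E had a Pearson correlation of -0.88, given as a description since the samples share groups and controls.

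OLFM2 and TMEM132A had more reads in every group and differed less between groups. OLFM2 stood at 32.5, 26.1 and 25.8 CPM in control A and at 42.6, 34.4 and 33.5 CPM in ΔSCC4. TMEM132A stood at 54.6, 46.7 and 44.6 CPM in control A and at 73.3, 56.7 and 61.2 CPM in ΔSCC4. For both genes all ΔSCC4 samples lay above all controls, by 1.31 times in the means. How many of all genes separate in this way was not computed. The log2 fold changes of 0.38 for OLFM2 (SE 0.161, edgeR adjusted p = 0.183) and 0.39 for TMEM132A (SE 0.153, edgeR adjusted p = 0.155) did not pass the threshold. Blocked on the replicate number, edgeR gave 0.38 (SE 0.0697, adjusted p = 0.00120) and 0.39 (SE 0.0646, adjusted p = 0.000684). That blocked fit called 5754 of 12503 genes, 46.0%, where the fit without a block called 1186. Without control A replicate 1, too, both passed, with log2 fold changes of 0.51 and 0.49 and adjusted p-values of 0.0421 and 0.0452.

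OLFM2 stood at 33.1, 35.9 and 33.5 CPM in ΔWAPL 1.14 against 28.2, 27.2 and 26.4 CPM in control B, a rise of 0.31 on the log2 scale (SE 0.0666, edgeR adjusted p = 0.0165). That call was lost in a fit over all 18 samples (adjusted p = 0.114) and without ΔWAPL 1.14 replicate 3 (adjusted p = 0.0548). Its log2 fold change was 0.10 in ΔWAPL 3.3 (SE 0.172, edgeR adjusted p = 0.857) and -0.058 in ΔWAPL/ΔSCC4 (SE 0.138, edgeR adjusted p = 0.897). TMEM132A had log2 fold changes of -0.17 in ΔWAPL 3.3, 0.14 in ΔWAPL/ΔSCC4 and 0.13 in ΔWAPL 1.14, with edgeR adjusted p-values of 0.724, 0.691 and 0.300. TMEM132B had 0 to 3 reads in every sample, passed no filter and was not tested.

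**Figure D2:**
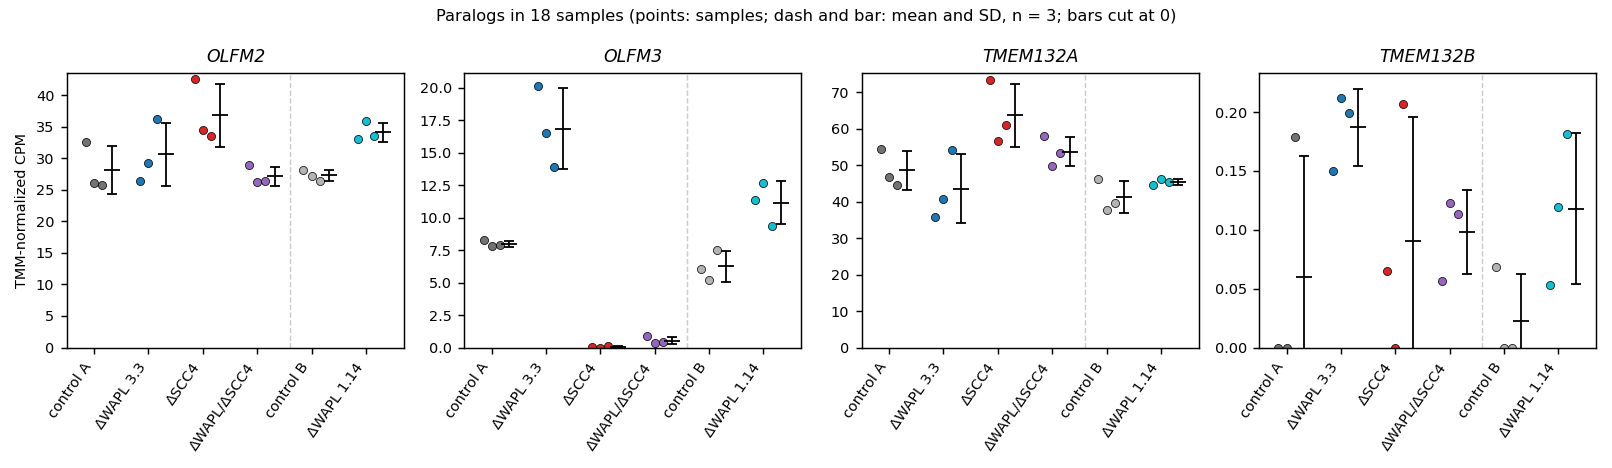
TMM-normalized CPM of the paralogs OLFM2, OLFM3, TMEM132A and TMEM132B in each of the 18 samples (points) by group, with mean and SD of 3 samples and a separate scale per gene. OLFM3 is near 0 in the groups without SCC4 and above its controls in both ΔWAPL clones, OLFM2 and TMEM132A stay within a narrow range, and TMEM132B stays under 0.25 CPM.

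Per length of exon, the chosen genes started far below OLFM2 and TMEM132A and drew nearer to them. In control A OLFM1 had 0.192 ± 0.0371 CPM per kb and OLFM2 11.4 ± 1.54 CPM per kb (SD, n = 3). In ΔSCC4 OLFM1 had 4.16 ± 0.432 CPM per kb, still below OLFM2 at 14.9 ± 2.03 CPM per kb. TMEM132E went from 0.225 ± 0.0553 to 4.59 ± 0.472 CPM per kb, and TMEM132A had 6.68 ± 0.724 CPM per kb in control A. In ΔWAPL/ΔSCC4 TMEM132E reached 5.16 ± 0.576 CPM per kb, against 7.40 ± 0.560 for TMEM132A in the same cells. TAFA5 had the highest level of the chosen genes per length in ΔSCC4, at 11.2 ± 1.55 CPM per kb. TMEM132A had 8.77 ± 1.18 CPM per kb in the same cells, above TMEM132E and below TAFA5.

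**Figure D3:**
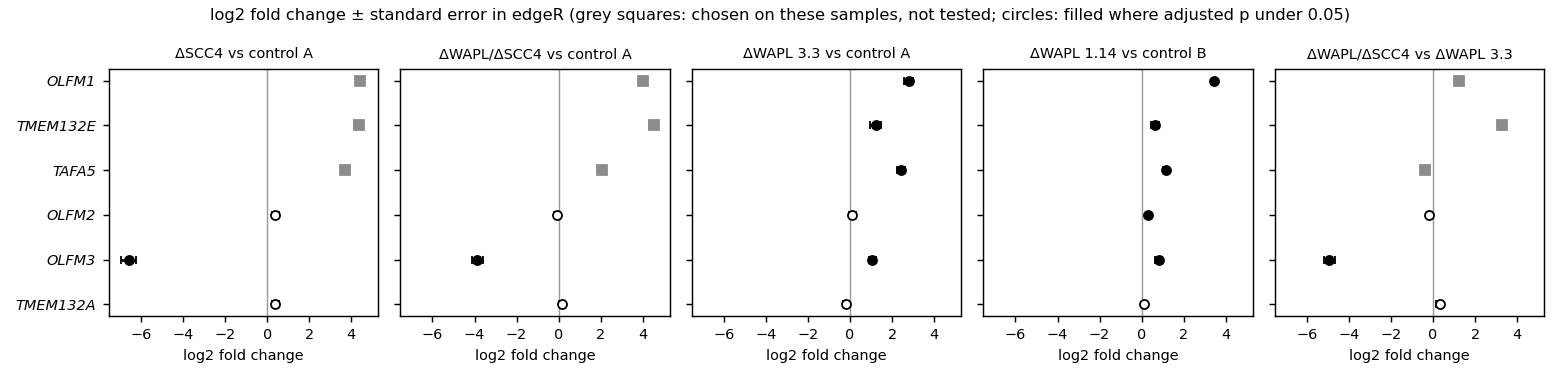
Log2 fold change with its standard error (edgeR) of the 6 tested members in 5 comparisons, where grey squares mark genes chosen on those samples and circles are filled where the adjusted p was under 0.05. OLFM3 lies between -6.58 and -3.87 in the 3 comparisons of cells without SCC4, and OLFM1 is the one above 3 on the log2 scale in ΔWAPL 1.14.

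The controls themselves stood apart in some members. OLFM1 was 1.95 times and TMEM132E 1.72 times higher in control B than in control A, without overlap, and OLFM3 was at 0.782 of its control A level. The TMEM132E ratio between the controls was larger than its 1.59 in ΔWAPL 1.14 over control B. In edgeR 0 of the 6 tested members were called between the controls, where 0.640% of 12509 genes were. Unadjusted p-values were under 0.05 for 2 of them, DESeq2 called 0, and a fit over all 18 samples called OLFM1 (log2 fold change 0.96, adjusted p = 0.00503).

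Of 11 further paralogs, 4 had enough reads to be tested. In ΔSCC4 none of these rose and 3 fell, where 9.49% of all genes were called, with a median log2 fold change of -3.04 against a median near 0 over all genes. OLFML3, a secreted olfactomedin-like protein, fell in every knockout group, from 5.28 ± 1.46 CPM in control A to 0.132 ± 0.114 in ΔSCC4, 0.447 ± 0.0593 in ΔWAPL/ΔSCC4 and 0.118 ± 0.0416 in ΔWAPL 3.3 (SD, n = 3). In ΔWAPL 1.14 it was at 0.376 ± 0.223 CPM against 3.56 ± 0.480 in control B. Its edgeR adjusted p-values ran from 4.71e-07 to 0.000534. TAFA4, a relative of TAFA5, fell with it. It had 72 reads over control A and 0 in each of ΔSCC4, ΔWAPL/ΔSCC4 and ΔWAPL 3.3. With a floor of 3 reads over the group, that is 19.8-fold, 25.6-fold and 24.5-fold lower. The lower 95% limits, which cover counting error only, were 15.7-fold, 20.3-fold and 19.4-fold. In ΔWAPL 1.14 it had 7 to 14 reads per sample against 33 to 46 in control B (log2 fold change -1.92, SE 0.221, edgeR adjusted p = 0.00105). OLFML2A fell in ΔSCC4 (-0.78, edgeR adjusted p = 0.0122). OLFML2B rose in ΔWAPL/ΔSCC4 (1.10, edgeR adjusted p = 0.0236), and both rose in ΔWAPL 1.14 (0.31 and 0.81, edgeR adjusted p = 0.0438 and 0.0308). The family members TMEM132C, TMEM132D, OLFM4, OLFML1, TAFA1 and TAFA3 had 0 to 4 reads in every sample, and TAFA2 had at most 22.

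Genes whose products meet the members were also listed, 12 in all, namely the Nogo receptors and their co-receptors, RTN4, the AMPA receptor subunits and S1PR2. Of 10 tested in ΔSCC4, none rose and 1 fell, a share near the 9.49% called among all genes. That gene was GRIA2, an AMPA receptor subunit, which went from 3.61 ± 1.22 CPM in control A to 0.601 ± 0.0486 CPM in ΔSCC4 (SD, n = 3, log2 fold change -2.58, SE 0.330, edgeR adjusted p = 0.000602). In ΔWAPL/ΔSCC4 it was at 0.866 ± 0.369 CPM and fell as well (-2.07, SE 0.331, edgeR adjusted p = 0.00257). GRIA2 rose in the ΔWAPL clones, to 10.9 ± 0.859 CPM in ΔWAPL 3.3 (1.57, SE 0.214, edgeR adjusted p = 0.000148) and from 3.71 ± 2.04 to 56.7 ± 9.43 CPM in ΔWAPL 1.14 (3.89, SE 0.323, edgeR adjusted p = 0.000238). Its directions in these 4 groups were those of OLFM3, up where WAPL alone was lost and down without SCC4.

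The receptors moved less. In ΔWAPL/ΔSCC4, where 7.95% of all genes were called, 4 of the 9 tested partners rose, namely NGFR, the p75 neurotrophin receptor (log2 fold change 1.12), TNFRSF19, a co-receptor of the Nogo receptor (0.76), RTN4RL1 (0.58) and RTN4RL2 (0.54), with edgeR adjusted p-values from 0.00102 to 0.0390. TNFRSF19 rose in both ΔWAPL clones, by 0.92 in ΔWAPL 3.3 and 0.98 in ΔWAPL 1.14 (edgeR adjusted p = 0.00115 and 0.000125). NGFR fell in ΔWAPL 1.14 (-1.61, edgeR adjusted p = 0.000124), and was higher in control B than in control A (0.95, edgeR adjusted p = 0.0311). The difference between the clones passed the threshold for NGFR (1.496, edgeR adjusted p = 0.00361) and GRIA2 (-2.31, edgeR adjusted p = 0.00807). RTN4R and RTN4RL2 rose in ΔWAPL/ΔSCC4 over ΔWAPL 3.3 (0.66 and 0.54, edgeR adjusted p = 0.0243 and 0.0221), as did NGFR (1.24, edgeR adjusted p = 0.000158), while GRIA2 fell (-3.66, edgeR adjusted p = 1.28e-08). The median log2 fold change of the tested partners was 0.15 in ΔSCC4 and 0.58 in ΔWAPL/ΔSCC4, against medians of all genes near 0.

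The chosen genes are known from neurons, so neuronal markers were read beside them. Of 14 markers in the files, 6 averaged at least 1 CPM in control A. Their summed level was 67.5 to 75.3 CPM in control A, 58.4 to 66.6 in ΔSCC4, 50.7 to 54.6 in ΔWAPL/ΔSCC4, 56.2 to 67.4 in ΔWAPL 3.3, 56.2 to 61.8 in control B and 63.0 to 66.0 in ΔWAPL 1.14. ELAVL4 and STMN2 had 0 reads in every ΔSCC4 sample, DCX and ELAVL3 at most 1, and RBFOX3 at most 7 (at most 2 in control A). Other markers of the list were present in ΔSCC4. MAP2 averaged 18.35 CPM there (18.34 in control A), INA 19.51 (23.97), SYP 15.37 (9.696) and SYT1 4.557 (15.53). Every ΔSCC4 sample lay above every control A sample for SYP, whose log2 fold change of 0.66 did not pass the threshold (edgeR adjusted p = 0.0602). In ΔSCC4 NCAM1 rose (1.29, edgeR adjusted p = 0.0280), and SYT1 (-1.77, edgeR adjusted p = 0.000169) and GAP43 (-3.33, edgeR adjusted p = 0.00402) fell. In ΔWAPL/ΔSCC4 NEFM and INA rose (4.15 and 0.68) and SYT1, MAP2 and GAP43 fell (-4.31, -2.73 and -1.963), with edgeR adjusted p-values up to 0.0141. SYT1 fell in ΔWAPL 3.3 (-2.77, edgeR adjusted p = 4.21e-07). In ΔWAPL 1.14 MAP2 rose (0.97, edgeR adjusted p = 0.000933) and INA fell (-0.68, edgeR adjusted p = 0.00579). The summed neuronal level was thus below every control A sample in ΔSCC4, ΔWAPL/ΔSCC4 and ΔWAPL 3.3, in the last by 67.4 against 67.5 CPM. Control B, too, lay below every control A sample, so the control sets differed as well. In ΔWAPL 1.14 the sum was above every control B sample. Its part in the members' levels was not tested.

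Markers of neural progenitors were present in all groups, with SOX2 on average at 426 to 575 CPM. In ΔSCC4, where 9.49% of all genes were called, 2 of 4 tested rose, SOX1 (log2 fold change 2.11, edgeR adjusted p = 9.06e-05) and PAX6 (0.69, edgeR adjusted p = 0.0302), and both also rose in ΔWAPL 1.14 (0.95 and 0.66, edgeR adjusted p = 0.00586 and 0.000953). PAX6 fell in ΔWAPL/ΔSCC4 (-0.99, edgeR adjusted p = 0.00408), and NES fell in ΔWAPL 3.3 (-0.64, edgeR adjusted p = 0.00709). The summed progenitor level was 650.6 to 719.0 CPM in control A, 742.6 to 896 in ΔSCC4, 759.0 to 777 in ΔWAPL/ΔSCC4, 555.0 to 655 in ΔWAPL 3.3, 774 to 838 in control B and 778 to 820.2 in ΔWAPL 1.14. Control B thus lay within the range of ΔSCC4. Of 10 blood markers, which the origin of the line could bring, KIT was the one at 1 CPM or more. The blood sum was 14.0 to 22.5 CPM in control A, 9.52 to 14.8 in the cells that lost SCC4 alone and 7.09 to 9.84 in ΔWAPL/ΔSCC4. Epithelial and fibroblast markers summed to at most 81.8 and 13.9 CPM in control A and reached 131 and 32.2 CPM in ΔWAPL/ΔSCC4. KRT8 (2.57) and COL1A1 (1.15) rose there (edgeR adjusted p = 3.31e-06 and 0.000200), while EPCAM did not (-0.81, edgeR adjusted p = 0.339). Of the fibroblast markers, COL1A1 was the one at 1 CPM or more. KRT8 fell in ΔSCC4, ΔWAPL 3.3 and ΔWAPL 1.14 (-1.61, -1.15 and -2.14, edgeR adjusted p up to 0.00189). EPCAM fell in ΔWAPL 3.3 and ΔWAPL 1.14 (-1.93 and -3.89, edgeR adjusted p = 0.00834 and 0.000322). The fibroblast sum was already 20.9 to 22.1 CPM in control B, 16.1 to 21.2 in ΔWAPL 3.3 and 19.8 to 21.4 in ΔWAPL 1.14, and 10.9 to 12.1 in ΔSCC4. The epithelial sum was 56.8 to 72.2 CPM in control B, 60.1 to 65.9 in ΔWAPL 3.3, 41.8 to 47.8 in ΔWAPL 1.14 and 50.1 to 62.4 in ΔSCC4. The part of these shifts in the members' levels was not tested.

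The genes around OLFM1, TMEM132E and TAFA5 were also examined. The 2 nearest protein-coding genes on each side of each were taken, 12 in all, of which FCN1, FCN2, CCL1 and CCL13 had 0 reads in every sample. Both genes before OLFM1 and both before TMEM132E were these silent ones, the nearest being FCN1 at 157.5 kb and CCL1 at 216.3 kb. Among the 8 tested neighbours the log2 fold change in ΔSCC4 lay between -0.10 and 0.39. In edgeR 0 of the 8 were called there, with 2 at an unadjusted p under 0.05 and 0 called by DESeq2. With 9.49% of all genes called, 0 of 8 is near the background and says nothing particular about the neighbours. The 0.39 belonged to TBC1D22A, 1314.0 kb before TAFA5, at 24.3 ± 1.75 CPM in ΔSCC4 against 18.5 ± 2.97 CPM in control A (SD, n = 3, edgeR adjusted p = 0.174).

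In ΔWAPL/ΔSCC4 and ΔWAPL 3.3, too, edgeR called 0 of the 8 neighbours, with 2 at an unadjusted p under 0.05 in each and 0 called by DESeq2, again near the background of 7.95% and 8.07%. Between ΔWAPL/ΔSCC4 and ΔWAPL 3.3, where 10.6% of all genes were called, it called 0, with 3 at an unadjusted p under 0.05 and 1 called by DESeq2. The widest value was that of CCT6B, 288.5 kb after TMEM132E, at -0.78 in ΔWAPL/ΔSCC4 (SE 0.228, edgeR adjusted p = 0.0694). In ΔWAPL 1.14 edgeR called 1 of the 8, against 20.1% of all genes. It was PPP1R26, 357.9 kb after OLFM1, at -0.19 (adjusted p = 0.0456), which DESeq2 did not call. For the clone difference and between the controls edgeR called 0, with 2 and 0 at an unadjusted p under 0.05 and 0 called by DESeq2. There 2.65% and 0.640% of all genes were called. These counts, too, say nothing particular about the neighbours.

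**Figure D4:**
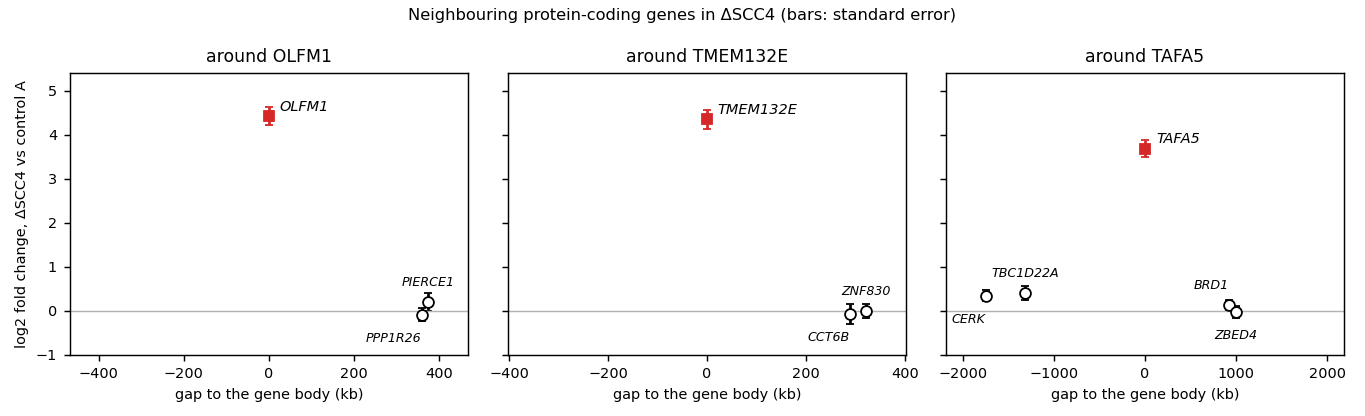
Log2 fold change in ΔSCC4 against control A, with standard errors (edgeR), of OLFM1, TMEM132E and TAFA5 (red squares) and of their tested neighbours (open circles), by the gap between the gene bodies in kb, negative before the gene. The 8 neighbours lie between -0.10 and 0.39 and the members above 3.5. The members were chosen on this comparison, so the gap between them and the neighbours carries no test.

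Among 12975 other expressed genes, those whose log2 CPM followed OLFM1 most closely over the 18 samples were KLHL29 (Pearson's r = 0.983), JAKMIP3, a protein of neuronal and neuroendocrine cells (0.982), and HBB, the beta chain of adult haemoglobin (0.968). These correlations share samples, groups and controls and are given as a description. KLHL29 changed less than OLFM1, from 6.94 ± 0.383 CPM in control A to 12.6 ± 0.221 in ΔSCC4 (SD, n = 3). HBB had 0 reads in all 6 controls and averaged 7.45 ± 1.39 CPM in ΔSCC4, 5.95 ± 1.29 in ΔWAPL/ΔSCC4, 3.598 ± 0.399 in ΔWAPL 1.14 and 1.60 ± 0.367 in ΔWAPL 3.3 (SD, n = 3). JAKMIP3 went from 0.184 ± 0.0990 CPM in control A to 7.56 ± 1.48 in ΔSCC4, and from 0.266 ± 0.129 in control B to 6.68 ± 0.784 in ΔWAPL 1.14.

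TMEM132E was followed by HOOK1, a microtubule-linked adaptor of endosome transport (r = 0.948), UBE2QL1 (0.944) and RAB36 (0.941). HOOK1 stood at 26.4 ± 3.82 CPM in ΔSCC4 and 31.1 ± 2.09 in ΔWAPL/ΔSCC4, and at 4.88 to 6.31 CPM on average in the other 4 groups. UBE2QL1 shared that split, with 3.82 ± 0.453 and 4.94 ± 0.106 CPM in the groups without SCC4 and at most 0.211 CPM on average elsewhere. TAFA5 was followed by NIPAL4 (0.930), NPTXR, the neuronal pentraxin receptor (0.914), and EPHA8, an ephrin receptor (0.914). NPTXR lies on chromosome 22 like TAFA5, and stood at 18.4 ± 2.77 CPM in ΔSCC4, 11 ± 1.14 in ΔWAPL 3.3 and 10.2 ± 0.584 in ΔWAPL/ΔSCC4 against 7.89 ± 0.955 in control A.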

How the data were processed

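The 18 samples were grouped by their labels. The authors made stranded TruSeq polyA libraries and aligned reads with TopHat, and the submitters' processing notes name TopHat2 2.0.9, HTSeq and DESeq2 1.10.1 with build hg19. They deposited HTSeq counts per gene without normalization. Depth was the summed count on genes, and reads on no gene or not unique (20.3% to 22.6% of all) were left out. Of 20329 Ensembl identifiers, 96.6% were found in GENCODE v44lift37.

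Each comparison was fitted on its own samples and all its genes with edgeR 4.0.16 in R 4.3.3 (TMM, filterByExpr defaults, glmQLFit and glmQLFTest, Benjamini-Hochberg adjustment, threshold 0.05). Each standard error was obtained by dividing the size of the log2 fold change by the root of its F statistic. Log2 CPM used a prior count of 2. Alternatives were DESeq2 1.42.0, its size factors, no filter, a joint fit of the 18 samples, a block for the replicate number, and leaving out each replicate. The fits were tested on simulated data. Same-numbered samples of ΔSCC4 and control A deviated together from their group means (correlations of 0.68, 0.12 and 0.62), so blocked values are given for that comparison. The labels do not say what a number marks. In every other comparison at least 1 pair fell below the 0.1 asked for.

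The members, lists and tests were chosen with earlier results of these data known. Named were all members, called genes of each list in some of the comparisons, the nearest protein-coding genes, and the genes most correlated with each chosen gene. The nearest were 2 on each side, and the most correlated were 3 for each. A list gene not named for a comparison can still have been called there. No 2 samples were identical, and replicates differed by more than sampling noise. Promoters came from RefSeq (GRCh38.p14).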

Additional observations from a re-analysis of the deposited data

Results flagged for a closer look

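The effect of losing WAPL on TAFA5 differed between the clones, by a test of the interaction itself. The log2 fold change over the clone's own controls was 2.44 in ΔWAPL 3.3 and 1.15 in ΔWAPL 1.14, a difference of 1.30 (SE 0.228, edgeR adjusted p = 0.00557). All 3 samples of each clone lay above all controls of its set. The difference passed the threshold in all 17 alternatives, at 1.17 to 1.41. Clone and sequencing set cannot be told apart here, and control A also took part in the choice of TAFA5.

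The 7 members were also examined for a sample far from the rest among the 6 controls. On log2 CPM none met the limit for 6 samples, and by chance about 1 group in 20 would. On plain CPM OLFM2 would pass that limit. Control A replicate 1 stood at 32.5 CPM, and the other controls at 25.8 to 28.2 CPM.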

How the results depend on the processing

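Across the alternatives, 477 of the members' log2 fold changes kept their direction and their side of the threshold, 11 lost a call, 7 gained a call and 3 changed sign. The 477 include all those of OLFM1, TMEM132E and TAFA5 in the comparisons with samples that chose them. These carry no test. The lost calls were those of TMEM132E, OLFM3 and OLFM2 in ΔWAPL 1.14 given above. The gained calls were those of OLFM2 and TMEM132A in ΔSCC4 (OLFM2 also in the fit over all 18 samples, with an adjusted p of 0.0339 in edgeR), of OLFM1 between the controls in that fit, and of TMEM132A between ΔWAPL/ΔSCC4 and ΔWAPL 3.3 without ΔWAPL 3.3 replicate 3 (0.49, edgeR adjusted p = 0.0129). The sign changed for OLFM2 alone, to 0.083 in ΔWAPL/ΔSCC4 without control A replicate 1 (-0.12 at the other end of that range), to -0.046 in ΔWAPL 3.3 without its replicate 3 (0.23) and to 0.086 between the controls without control A replicate 1 (-0.12). In ΔWAPL 1.14, 5 members were called, and 3 to 5 when a replicate was left out, with 3 without control B replicate 1 or without any of its own replicates. Between the controls, members called went from 0 to 1 in the fit over all 18 samples.

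Counts of called genes depended more on the processing, and the cause was not tested. With the replicate number as a block, ΔSCC4 went from 1186 to 5754, the clone difference from 339 to 173 and the controls from 80 to 162. The pairing by number moved no other count beyond 1.5 times and, beside OLFM2 and TMEM132A in ΔSCC4, changed no other call of a member. The fit over all 18 samples called 2556 in ΔSCC4, 1753 in ΔWAPL 3.3 (1008 in the separate fit) and 408 between the controls, for which no filter gave 127 and DESeq2 168. Leaving out a replicate gave 662 to 2317 in ΔSCC4, 586 to 1552 in ΔWAPL/ΔSCC4 (1001 with all), 1415 to 4820 in ΔWAPL 1.14 (2536), 861 to 1805 for ΔWAPL/ΔSCC4 against ΔWAPL 3.3 (1330), 218 to 372 for the clone difference and 0 to 107 between the controls. The libraries behind the extremes were control A replicate 1 (2317, 1552) and 2 (662, 0), control B replicate 3 (4820), ΔWAPL/ΔSCC4 replicate 1 (586), ΔWAPL 1.14 replicate 1 (1415, 218) and ΔWAPL 3.3 replicate 2 (861). OLFM3 in ΔSCC4 and TMEM132B in all groups rest on 0 to 3 reads per sample, where depth allows no finer statement.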
